A study of Mus musculus with 2 samples.

Results

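Collagen genes were taken as the known genes whose symbol is Col, a number, the letter a and a second number, and 44 of the 23257 known genes of the deposited table met this rule, which uses no expression value. The data were RNA-Seq libraries of 1 condition, neural stem cells (NSCs) from the cerebral cortex of CD-1 mouse embryos at E14.5. The cells were bought and grown as monolayers on poly-d-lysine, in medium to which EGF and FGF had been added, either factor at 20 ng/ml. The study sequenced poly(A)+ RNA of 2 replicates, NSC replicates 1 and 2, with a TruSeq kit that does not mark strand. The study calls its NSC replicates biological, without saying whether they were separate cultures, so how much of the spread between them is technical is not known. There was no treatment and no second cell type among these libraries, so levels are described and no contrast between conditions was made. Levels are FPKM, counts of sequenced fragments scaled to the length of the transcript and to the size of the library, and the lowest value in the table is an FPKM of 0.1, written here as "at the lowest value". The study's supplementary methods state that FPKM under 0.1 were raised to 0.1 when fold enrichment was calculated. That this was also done to the deposited values is inferred from their minimum. A gene listed at it may therefore have had any FPKM from 0 to 0.1. FPKM do not give the depth of a library, so precision is read from the spread of the 2 replicates alone.

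Collagens are secreted or membrane proteins made of 3 chains wound around each other. In the wound part every chain repeats Gly-X-Y, a glycine followed by 2 other residues, because only glycine is small enough to sit at the centre of the helix. Fibril-forming collagens build the fibrils of connective tissue, collagen IV builds the network of basement membranes, and FACITs (fibril-associated collagens with interrupted triple helices) sit on the surface of fibrils. In the developing cortex, the end feet of radial glia, the neural stem cells of that tissue, rest on the pial basement membrane, in which collagen IV is a main component. Cells of the meninges and of vessels are known sources of collagen in the brain.

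The cultures carried RNA of a restricted set of collagens, led by Col26a1, Col4a5 and Col5a2. Of the 44 collagens 12 (27.3%) were above FPKM 1 in both libraries, against 47.7% of all known genes. A single collagen, Col26a1, was above FPKM 10 in both, against 24.5% of known genes. At the lowest value in both libraries were 20 collagens (45.5%), against 40.3% of known genes. The remaining 12 had a value above the lowest in at least 1 library without passing FPKM 1 in both. The median of the mean FPKM over all 44 was 0.144, and 0.174 and 0.1 in replicates 1 and 2 alone, against 0.695 for all known genes. Among genes above FPKM 1 in both libraries the median was 3.44 for collagens and 10.8 for known genes. Summed over the 44 genes, FPKM was 65.0 in replicate 1 and 61.2 in replicate 2, which was 0.0184% and 0.0167% of the summed FPKM of known genes. By number of genes the collagens were 0.189% of the table. The 12 collagens above FPKM 1 made up 89.97% and 90.07% of the collagen sum, and the 3 highest alone 46.9% and 48.6%.

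**Figure D1:**
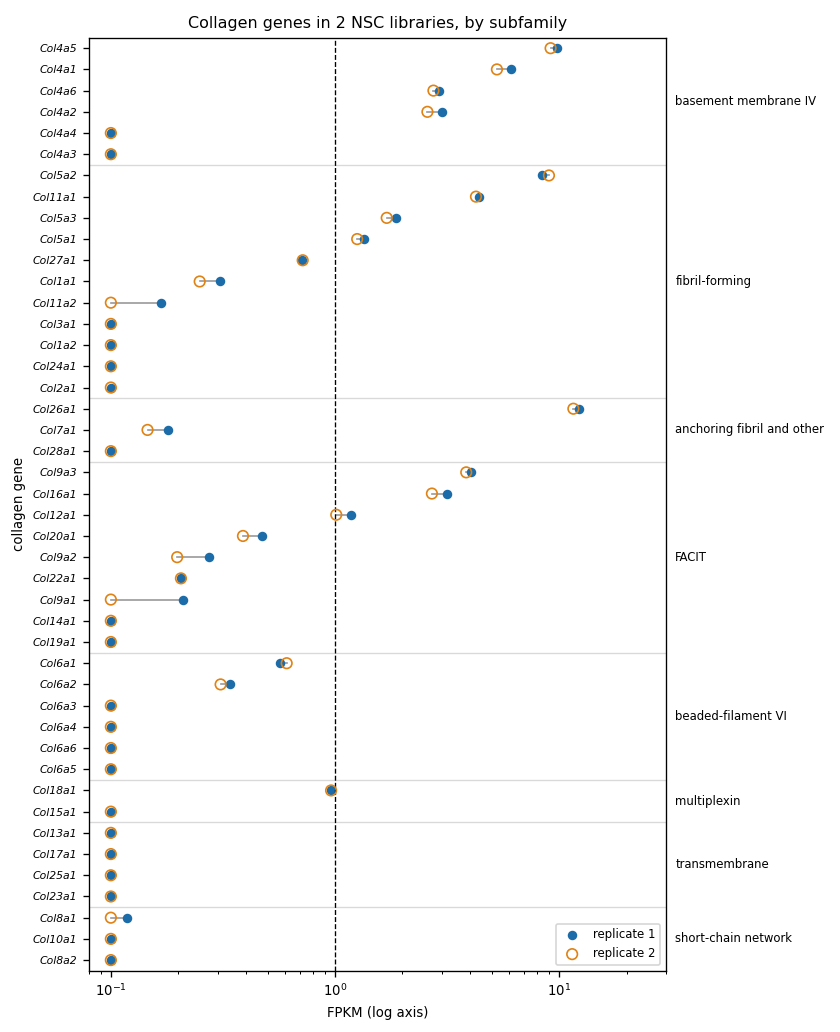
FPKM (log axis) of each of the 44 collagen genes in replicate 1 (filled points) and replicate 2 (open points), grouped by subfamily, with a dashed line at FPKM 1. The 12 genes right of the line lie in 4 subfamilies, and 20 genes sit at 0.1 in both libraries.

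Col26a1 had the highest level of any collagen. It encodes a short secreted chain with an EMI domain and a small collagenous part, and is set apart from the classical subfamilies. Its FPKM was 12.3 in replicate 1 and 11.6 in replicate 2 (11.9 ± 0.51, SD, n = 2), which placed it at the 77.9th percentile of the mean FPKM of known genes. It alone made up 18.9% of the collagen sum in either library. This share rests on the scale per length, since the group of 3 genes it leads went from 19.3% to 6.74% of the sum when FPKM were multiplied by coding length. The gene lies on chromosome 5 from 136741759 to 136883209 on the minus strand (GRCm38, GENCODE M21). Its coding sequence has 440 codons in 13 coding exons. Its longest stretch of Gly-X-Y triplets spans 23 triplets, the shortest such maximum of all 44 members, and its triplets in stretches of 5 or more cover 23.2% of its codons.

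To show what the repeat looks like in the 3 highest members, the first 18 codons of the longest stretch that lie within 1 exon are given from the GENCODE M21 transcripts, 5′ to 3′ in the reading frame, with each glycine codon in capitals. The last line shows, in Col4a5, how a collagen IV chain leaves the repeat and takes it up again.
Col26a1, codons 205 to 222, coding exon 6 of 13, chr5:136754952-136755005, minus strand: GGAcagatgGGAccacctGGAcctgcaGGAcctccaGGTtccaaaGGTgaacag
Col4a5, codons 1273 to 1290, coding exon 44 of 53, chrX:141666850-141666903, plus strand: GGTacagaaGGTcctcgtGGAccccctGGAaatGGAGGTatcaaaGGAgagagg
Col5a2, codons 229 to 246, coding exon 10 of 54, chr1:45422386-45422439, minus strand: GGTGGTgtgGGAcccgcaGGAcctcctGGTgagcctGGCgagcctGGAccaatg
Col4a5, codons 156 to 173, coding exon 9 of 53, chrX:141578672-141578725, plus strand: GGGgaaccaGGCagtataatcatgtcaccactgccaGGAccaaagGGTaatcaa
In the first 3 lines every triplet opens with a capital codon. In the last line the capitals stop after the second triplet and resume 18 bases past the end of it. The Col5a2 stretch is exactly 1 exon of 54 bases, that is 6 triplets, the exon size from which genes of fibril-forming collagens are largely built.

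Collagen IV, the network-forming collagen of basement membranes, held the largest share of the collagen sum, 33.8% in replicate 1 and 32.6% in replicate 2, in 4 of 6 genes above FPKM 1. Col4a5 was the second highest collagen, with an FPKM of 9.77 and 9.16 in replicates 1 and 2 (9.47 ± 0.428, SD, n = 2). Col4a1, whose chain joins that of Col4a2 in the most widespread collagen IV molecule, had 6.07 and 5.28 (5.68 ± 0.562). Col4a2 had 3.01 and 2.58 (2.80 ± 0.298), and so lay below Col4a1 in both libraries. Col4a6, whose chain pairs with that of Col4a5, had 2.90 and 2.75 (2.83 ± 0.107). Col4a3 and Col4a4, which join Col4a5 in the collagen IV of kidney glomeruli, were at the lowest value in both libraries.

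The collagen IV genes lie in head-to-head pairs on chromosomes 8, 1 and X, the members of a pair being read in opposite directions from starts close to each other. Col4a1 (minus strand, start at 11312826) and Col4a2 (plus strand, start at 11312805) share their first 22 bases in the annotation, and both were above FPKM 1. Col4a4 and Col4a3 have 71 bases between their starts, and both were at the lowest value. Col4a6 and Col4a5 have 1308 bases between their starts, and both were above FPKM 1, Col4a5 at 3.35 times the FPKM of Col4a6. In each of the 3 pairs both genes thus lay on the same side of FPKM 1. With 27.3% of collagens above FPKM 1 in both libraries, 2 collagens taken at random would often do so. No other pairs were counted, so whether head-to-head genes share their level more than others was not tested. The bases shared or enclosed by the first 2 pairs, and the 120 bases before each gene of the third, show what lies between these starts (RefSeq promoters, GRCm38.p6, clipped at the GENCODE starts). The capitals mark the GC box GGGCGG and the CCAAT box CCAAT on either strand.
Col4a1 and Col4a2, shared first bases, chr8:11312805-11312826, plus strand: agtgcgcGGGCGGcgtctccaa
Col4a4 and Col4a3, between the starts, chr1:82586850-82586920, plus strand: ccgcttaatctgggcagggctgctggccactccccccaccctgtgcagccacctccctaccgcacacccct
Before Col4a5, chrX:141475265-141475384, plus strand: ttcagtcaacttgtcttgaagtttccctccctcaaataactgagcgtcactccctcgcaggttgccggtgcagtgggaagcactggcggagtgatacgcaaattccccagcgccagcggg
Before Col4a6, chrX:141474077-141474196, minus strand: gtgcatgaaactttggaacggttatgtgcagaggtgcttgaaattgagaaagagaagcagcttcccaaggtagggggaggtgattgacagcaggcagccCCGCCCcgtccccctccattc
A GC box lies in the bases that Col4a1 and Col4a2 share and in those before Col4a6. These letters are in neither of the other printed stretches, and the CCAAT box is in none of the 4. The printed stretches are short and do not stand for the whole promoters. Over the 250 bases before the RefSeq start, Col4a5 and Col4a2 had both boxes. Over the same length Col4a1 had a CCAAT box and no GC box, Col4a6 a GC box and no CCAAT box, and Col4a4 neither.

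Of the 44 members 35 had a promoter in the RefSeq table, in 38 entries, each read here over the 250 bases before the start. Of the 12 above FPKM 1, 8 had one, and Col26a1, Col5a2, Col9a3 and Col12a1 were not among them. Over these bases GGGCGG on either strand was in 7 of 8 promoters of collagens above FPKM 1 and in 15 of 30 promoters of the other collagens. It was in 32.7% of all promoters in the table, in 59.8% of those of known genes above FPKM 1 and in 24.7% of those of other known genes. CCAAT was in 6 of 8 and in 7 of 30, against 33.8% of all promoters, 35.9% of those of known genes above FPKM 1 and 34.3% of the others. TATAAA was in 0 of 8 and in 5 of 30, against 12.4% of all promoters, 5.88% of those of known genes above FPKM 1 and 17.6% of the others, so known genes had the same order. The median GC content was 68.2% for the 8 promoters and 57.8% for the 30, and 60.4% and 50% for known genes above FPKM 1 and the other known genes. Collagens and known genes thus shared the order of these medians. The motifs are matches of letters and no test was made.

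Fibril-forming collagens held the next largest share of the sum, 27.2% in replicate 1 and 28.9% in replicate 2, and it came from chains of collagens V and XI rather than those of collagens I, II and III. Col5a2, a chain of the collagen that nucleates fibrils with collagen I, had an FPKM of 8.43 and 9.01 in replicates 1 and 2 (8.72 ± 0.408, SD, n = 2). Col11a1, a chain of the collagen that nucleates cartilage fibrils, had 4.41 and 4.26 (4.34 ± 0.111). Col5a3 had 1.87 and 1.70 (1.79 ± 0.121) and Col5a1 had 1.34 and 1.26 (1.298 ± 0.0596). The other 7 of 11 were below FPKM 1 in both libraries. Col27a1, a fibril-forming chain of cartilage, had 0.715 and 0.718. Col1a1, a chain of the main collagen of skin and bone, had 0.307 and 0.249, Col11a2 had 0.168 in replicate 1 and was at the lowest value in replicate 2, and Col1a2, Col2a1, Col3a1 and Col24a1 were at it in both.

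FACITs held 15.0% and 14.1% of the sum, in 3 of 9 genes above FPKM 1. Col9a3, a chain of the collagen that coats cartilage fibrils, had an FPKM of 4.04 and 3.85 in replicates 1 and 2 (3.95 ± 0.133, SD, n = 2). Col16a1, a FACIT-like chain, had 3.15 and 2.71 (2.93 ± 0.314). Col12a1, a FACIT of tendon and other dense tissues, was the member just inside FPKM 1, with 1.18 and 1.01 (1.10 ± 0.119). Among the others Col20a1 had 0.474 and 0.389, Col9a2 0.273 and 0.198, and Col22a1 0.206 and 0.205. Col9a1 had 0.209 in replicate 1 and was at the lowest value in replicate 2, and Col14a1 and Col19a1 were at it in both.

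Of the 18 genes of the remaining subfamilies only Col26a1 was above FPKM 1 in both libraries. Col18a1, a multiplexin of basement membranes whose cleavage releases endostatin, was the member just outside FPKM 1, with 0.964 and 0.961, while the other multiplexin, Col15a1, was at the lowest value. In collagen VI, which forms beaded filaments around cells, Col6a1 had 0.567 and 0.609 and Col6a2 had 0.341 and 0.309, and Col6a3, Col6a4, Col6a5 and Col6a6 were at the lowest value. Col7a1, the chain of the anchoring fibrils below the epidermis, had 0.180 and 0.146, and Col28a1 was at the lowest value. All 4 transmembrane collagens, Col13a1, Col17a1, Col23a1 and Col25a1, were at the lowest value, as were Col10a1 and Col8a2 of the short-chain network collagens, and Col8a1 had 0.119 in replicate 1 and the lowest value in replicate 2.

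The order of the 12 collagens above FPKM 1 was Col26a1, Col4a5, Col5a2, Col4a1, Col11a1, Col9a3, Col16a1, Col4a6, Col4a2, Col5a3, Col5a1 and Col12a1. The ranges of the 2 libraries overlapped between Col16a1 and Col4a6 and between Col4a6 and Col4a2, so these 3 were not separated by this measure. The other neighbours in the order did not overlap, the narrowest gaps being 9.16 against 9.01 for Col4a5 and Col5a2 and 1.26 against 1.18 for Col5a1 and Col12a1.

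Partner chains of 1 collagen were at unequal levels in these libraries. The FPKM of Col4a1 was 2.02 times that of Col4a2 in replicate 1 and 2.04 times in replicate 2. In the standard molecule the chains of these genes are combined at a ratio of 2 to 1. Col4a5 was 3.37 and 3.33 times Col4a6. Col5a2 was 6.29 and 7.17 times Col5a1, although the common collagen V molecule holds more chains of Col5a1 than of Col5a2, and it was 4.50 and 5.29 times Col5a3. Col9a3 was 14.8 and 19.5 times Col9a2, and collagen IX holds 1 chain of each of its 3 genes. Col11a1 stood beside Col11a2 and Col2a1, its partners in cartilage, which were at or close to the lowest value, and Col1a1 stood without Col1a2. Col6a1 was 1.66 and 1.97 times Col6a2 at levels below FPKM 1, with Col6a3 at the lowest value. These are ratios of RNA per length, and no protein was measured.

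**Figure D2:**
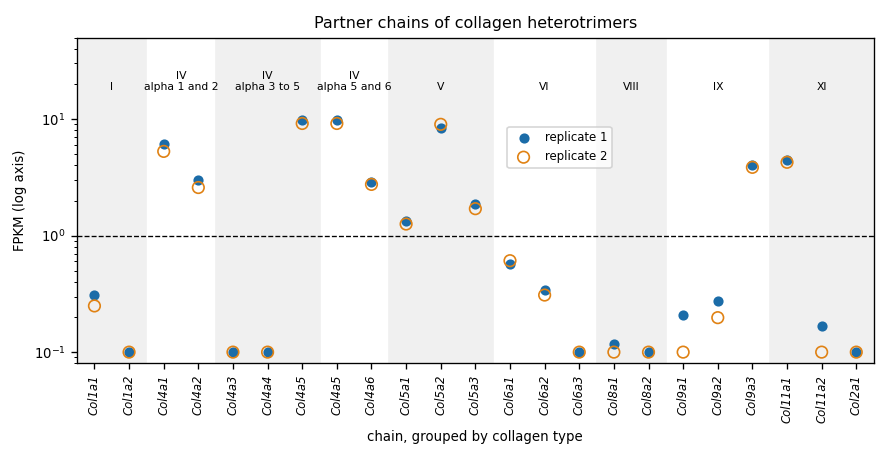
FPKM (log axis) of the chains of collagens that are built from more than 1 gene, in replicate 1 (filled points) and replicate 2 (open points), with Col4a5 drawn in both molecules it can join and a dashed line at FPKM 1. Only collagen IV (alpha 1 and 2, alpha 5 and 6) and collagen V have all drawn chains above FPKM 1 in both libraries.

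All 44 genes had a coding sequence in GENCODE M21, and all carried the collagen repeat in it. The longest stretch of Gly-X-Y triplets was between 23 and 344 triplets, with a median of 58.5, against a median of 2 triplets over the other known genes with a coding sequence. Fibril-forming collagens had 216 to 344 triplets without a break, collagen IV had at most 39 to 66 in 22 to 27 stretches of 5 or more, and the other subfamilies had at most 23 to 113. Coding exons of 54 bases made up 47.0% of those of fibril-forming collagens, 12.1% of those of the other collagens and 0.420% of those of the other known genes. Coding exons with a length divisible by 9 bases, the length of whole triplets, made up 61.8% in collagens and 13.95% in the other known genes. Only length was counted, not the frame or the codons of these exons.

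The median length of the repeat was close in collagens above FPKM 1 and in the others. The 12 collagens above FPKM 1 had a median longest stretch of 59 triplets and the 32 others 58.5. The highest member, Col26a1, had the shortest maximum, and the third highest, Col5a2, had 339 triplets. Coding length had a median of 1691 codons in the 12 and 1458.5 in the 32, against 409 in the other known genes.

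**Figure D3:**
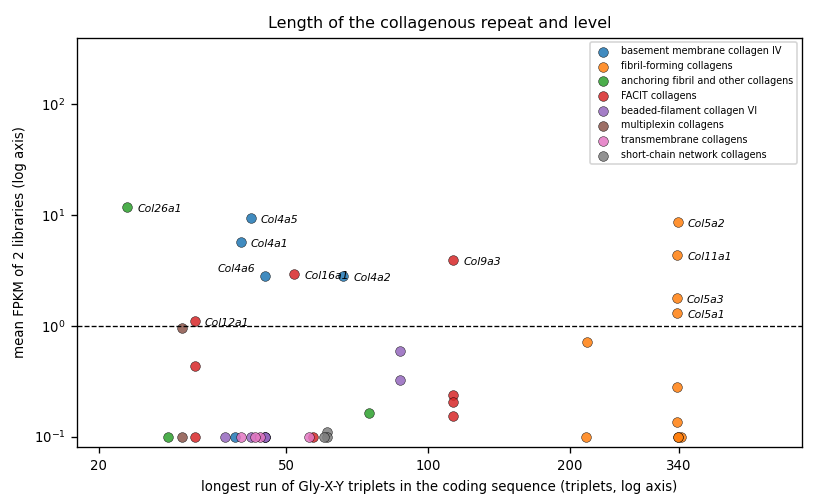
Mean FPKM of the 2 libraries (log axis) against the longest unbroken stretch of Gly-X-Y triplets in the coding sequence (log axis), 1 point per collagen, coloured by subfamily, with a dashed line at FPKM 1. Genes above FPKM 1 lie at short (Col26a1, 23 triplets), middle (Col9a3, 113) and long repeats (Col5a2, 339), and genes at 0.1 lie along the same range.

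The repeat also occurs outside the collagens. A stretch of at least 23 triplets was found in 18 other known genes, among them those of macrophage scavenger receptors (Marco, Msr1), collectins (Colec10, Colec11, Colec12), complement C1q (C1qb) and the tail of acetylcholinesterase (Colq). Of the 18 genes 15 were at the lowest value in both libraries, against 40.3% of known genes. Scara3 had 0.638 and 0.609, and Emid1, which shares the EMI domain with Col26a1, had 0.533 and 0.302. Only C1qtnf5, a secreted C1q-like protein, was above FPKM 1, with 3.43 and 3.31. It shares 1589 exon bases with Mfrp on the same strand, which was listed at 0.273 and 0.295, and how reads were divided between these genes is not known.

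The libraries agreed closely on the collagens above FPKM 1, as they did on nearly all known genes above it. None of the 12 differed over 1.5-fold between the libraries, on log2(FPKM + 0.1), against 0.217% of the 11083 known genes above FPKM 1 in both. At that share none is likely among 12 genes, so the count says nothing particular to collagens. The largest difference was 1.16-fold, and the SD between the libraries was 2.56% to 10.8% of the mean. The direction was uneven. Of the 12 collagens 11 were higher in replicate 1 and only Col5a2 was lower, against 43.8% of known genes higher in replicate 1. The median log2 ratio of replicate 1 over replicate 2 was 0.089 for the 12 and -0.017 for known genes, with an SD of 0.139 over the latter.

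The ratio between the libraries moved with coding length over all known genes. Among genes above FPKM 1 of up to 200 codons 25.3% were higher in replicate 1, with a median log2 ratio of -0.077. Among those of 1300 to 2000 codons, where 9 of the 12 collagens lie, 66.4% were higher in replicate 1, with a median of 0.045, and 8 of the 9 collagens were. Over 2000 codons the share was 71.6% and the median 0.058. Both short members, Col26a1 (440 codons) and Col9a3 (680 codons), were also higher in replicate 1, where 45.0% and 48.9% of known genes of their length were. The part of coding length in the direction of the collagens was not tested.

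**Figure D4:**
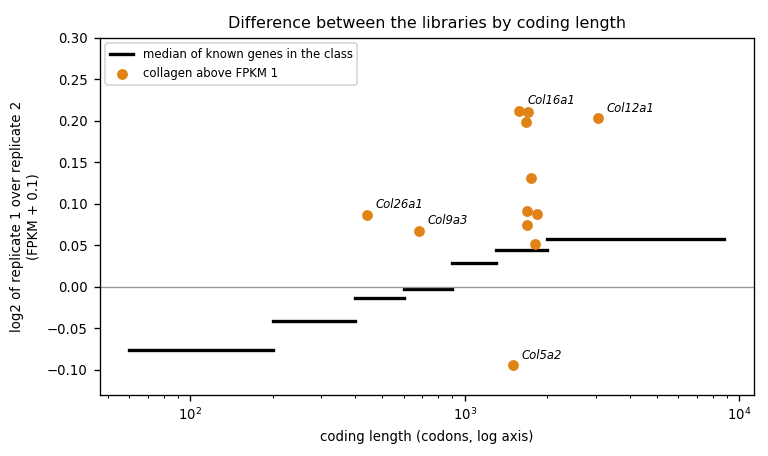
Log2 of replicate 1 over replicate 2 (FPKM + 0.1) against coding length in codons (log axis) for the 12 collagens above FPKM 1 (points), with the median over all known genes above FPKM 1 in each of 7 length classes (bars). The bars rise from -0.077 to 0.058, and Col5a2 is the only point below 0.

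Genes that modify, fold and export collagen were above FPKM 1 in most cases, and the other lists varied; differences between lists were not tested. Over 7 lists with 67 genes in all, 47 (70.1%) were above FPKM 1 in both libraries and 28 (41.8%) above FPKM 10, against the 47.7% and 24.5% of all known genes given above. Their median was 4.24, against 0.695 for known genes and 0.144 for collagens. In hydroxylation and glycosylation 11 of 13 genes passed FPKM 1 in both, the median being 13.8. The highest were P4hb, the beta subunit of prolyl 4-hydroxylase, with 128.8 and 130.5 in replicates 1 and 2, Colgalt1, a collagen galactosyltransferase listed as Glt25d1, with 37.4 and 36.0, and the lysyl hydroxylase gene Plod3 with 24.2 and 23.0. The lowest was P4ha3, a catalytic subunit of prolyl 4-hydroxylase, with 0.477 and 0.412. Of the other catalytic subunit genes in this list, P4ha1 had 17.97 and 20.42, and P4ha2 was below FPKM 1 in both libraries.

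In folding and export all 15 genes passed FPKM 1 and the median was 58.0. The highest were Calr, a chaperone of the endoplasmic reticulum, with 190.0 and 201.4, Serpinh1, the collagen-specific chaperone HSP47, with 193.6 and 189.0, and Ppib, a prolyl isomerase, with 144.0 and 161.1. The lowest was Fkbp10, a further prolyl isomerase, with 3.08 and 3.07. Several of these genes serve all secreted proteins, so their level is not particular to collagen.

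The shares of genes above FPKM 1 in propeptide cleavage and cross-linking were close to the 47.7% of all known genes. In propeptide cleavage 4 of 8 genes passed FPKM 1 in both, the median being 1.14. Bmp1, the main C-proteinase, had 22.03 and 22.42, Adamts14, an N-proteinase, had 9.87 and 8.95, and the enhancer gene Pcolce had 3.53 and 3.04, while Adamts2, Tll1 and Tll2 were at the lowest value. In cross-linking 2 of 5 genes passed FPKM 1 in both, the median being 0.117. Loxl3 had 2.08 and 2.18, Loxl2 had 1.13 and 1.23 and Loxl4 had 0.116 and 0.118, and Lox, the classical lysyl oxidase, was at the lowest value.

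In degradation and uptake 6 of 11 genes passed FPKM 1 in both, the median being 1.55. The highest were Mmp15 and Mmp14, membrane-bound matrix metalloproteinases, with 117.1 and 109.1, and 19.2 and 19.8, and Timp2, a metalloproteinase inhibitor, with 17.6 and 16.9. The inhibitor genes Timp3 (15.3 and 17.1) and Timp1 (4.51 and 3.96) were also among the 6. The collagenases Mmp8 and Mmp13 and the gelatinase Mmp9 were at the lowest value. Among receptors 4 of 10 were above FPKM 1, with a median of 0.616. Gpr56, an adhesion receptor for which collagen III is a known ligand in the developing cortex, had 145.7 and 144.0, while Col3a1 was at the lowest value in these libraries. Itgb1, the integrin beta 1 subunit, had 137.2 and 143.6 and Ddr1, a receptor tyrosine kinase for collagen, had 91.0 and 90.1. The integrin alpha subunit gene Itga11, the platelet receptor gene Gp6 and Lair1 of immune cells were at the lowest value. The other integrin alpha subunit genes in this list were also below FPKM 1. Itga1 had 0.915 and 0.894, Itga2 had 0.305 and 0.353 and Itga10 had 0.298 and 0.180.

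All 5 genes of the list of basement membrane partners were above FPKM 1, with a median of 3.47. Dag1, dystroglycan, had 71.0 and 68.0, Agrn, agrin, had 36.6 and 33.4, and Nid2, a nidogen that links collagen IV to laminin, had 3.57 and 3.38. The lowest was Nid1, with 1.93 and 1.76.

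**Figure D5:**
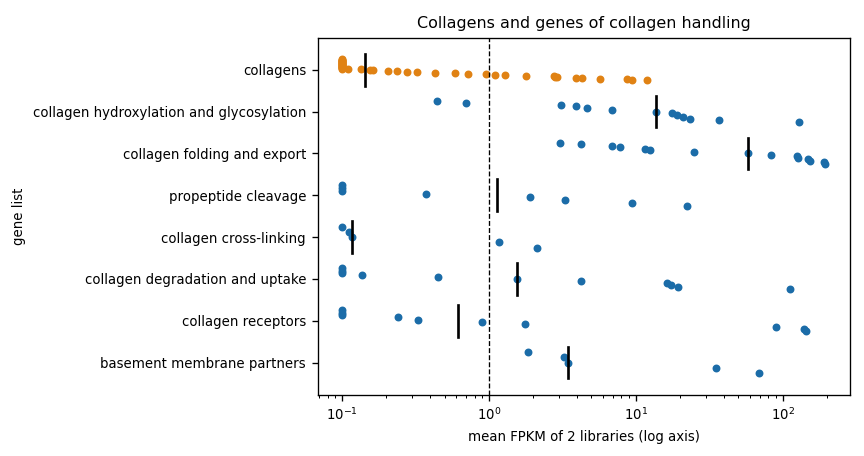
Mean FPKM of the 2 libraries (log axis) for each of the 44 collagens and for the genes of 7 lists of collagen handling, 1 point per gene, with the median of each list as a black bar and a dashed line at FPKM 1. The bars run from 58.0 for folding and export to 0.117 for cross-linking, and that of the collagens is at 0.144.

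Markers of other cell types were at the lowest value in both libraries in 6 of 8 cases for endothelial cells, 5 of 8 for pericytes, 8 of 8 for microglia and 3 of 10 for fibroblasts and meninges, against 40.3% of known genes. All 10 markers of NSCs and radial glia passed FPKM 1, from Prom1 (2.33 and 2.54) to Slc1a3 (427.0 and 437.8), Vim (1231 and 1205) and Fabp7 (1900 and 2211), with a summed FPKM of 3857 and 4138. Of 8 endothelial markers 6 were at the lowest value in both libraries, Pecam1, Cldn5, Cdh5, Tek, Tie1 and Flt1, with Kdr at 0.238 and 0.139 and Esam at 0.111 and 0.192, and the list summed to 0.949 and 0.931. Of 8 pericyte markers 5 were at the lowest value, Rgs5, Kcnj8, Abcc9, Anpep and Vtn, and Pdgfrb had 0.131 and 0.204. The pericyte sum of 28.2 and 27.7 came nearly whole from Notch3 (18.7 and 18.3) and Cspg4 (8.83 and 8.66). Some neural progenitors also express these genes, and which cells carried their RNA was not tested. All 8 microglia markers, among them Aif1, Cx3cr1 and Csf1r, were at the lowest value and summed to 0.8 in either library.

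Fibroblast and meningeal markers were split. Dcn, Lum and Aldh1a2 were at the lowest value in both libraries, whereas 4 of 10 were above FPKM 1. Foxc1, a transcription factor of the meninges, had 4.88 and 4.11, Fn1, fibronectin, had 4.15 and 3.88, Pdgfra had 3.32 and 3.57 and Twist1 had 1.37 and 1.12. The list summed to 14.6 and 13.3. Oligodendrocyte precursors also express Pdgfra. In a culture, cells of another type and RNA of the main cells cannot be told apart from summed values, and the part of such cells in the collagen levels was not tested.

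In the lncRNA table, 10 lncRNAs overlap 9 collagen genes on GRCm38, 8 of them on the opposite strand, and all 10 were at the lowest value in both libraries, as were 92.8% of the 8714 lncRNAs, so this says nothing particular to collagen genes. They include Gm20485 within Col26a1, Gm15418 at the end of Col4a1, Gm15419 within Col4a2, C430014B12Rik at Col4a3, 2810430I11Rik and Gm13372 at Col5a1 and 4930562D21Rik within Col12a1. Of the 8714 lncRNAs 7228 could be placed on the genome by name or coordinates.

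Because the libraries do not mark strand, reads of exons shared with a gene on the other strand cannot be assigned. Among the members above FPKM 1, Col9a3 shares 234 exon bases with Tcfl5, which was listed at 0.289 and 0.275, and Col4a1 and Col4a2 share 22. Col10a1 shares 18 with Nt5dc1 (2.27 and 2.37). Col18a1, just under FPKM 1, overlaps Slc19a1 (10.2 and 9.61) in its introns, with 0 exon bases shared. The microRNA genes Mir455 within Col27a1 and Mir711 within Col7a1 were at the lowest value, in libraries of poly(A)+ RNA.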

How the data were processed

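The authors sequenced poly(A)+ RNA of the NSC libraries and deposited FPKM per gene for known genes and lncRNAs. Per the submitters' processing notes, reads were aligned to mm10 with TopHat2 2.0.11 and Bowtie2 2.2.2, and Cufflinks 1.3.0 gave the deposited FPKM. No value lies below 0.1 in either table, the value to which the authors raised lower FPKM when they calculated fold enrichment. FPKM hold no read counts, so depth and counting error are unknown and no count model was used. Of 130 genes of ribosomal proteins, the proteasome and ATP synthase only 5, Psma8, Psmb11, Rpl10l, Rpl39l and Rpl3l, were at 0.1 in both libraries.

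Both libraries form 1 group, from the labels. Counts, medians, shares and ratios were computed with Python 3.11.15, NumPy 2.4.6 and pandas 2.3.3 and drawn with matplotlib 3.10.9, and the ratio calls and the repeat search were tested on simulated data. Ratios between libraries used log2(FPKM + 0.1). Coordinates and coding sequences (the longest complete one per gene) came from GENCODE M21, whose build GRCm38 is that of mm10, and promoters and older names from RefSeq. Of the list genes 5 were found under an older symbol. Named are all collagens and, from each other list, the 3 highest and the lowest genes, with further ones chosen after their values were seen. The members and lists were chosen with earlier results of these data known. Alternatives tried were FPKM thresholds of 0.5 and 5, older symbols, other pseudocounts, no low-value filter, scaling, weighting by coding length and each library alone.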

Additional observations from a re-analysis of the deposited data

How the results depend on the processing

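No paired analysis was possible because there is 1 group. With a threshold of FPKM 5 in place of 1 only 4 collagens passed, and with FPKM 0.5 there were 15. The table holds 0 further genes with an older collagen symbol. The median over collagens was 1.298 when only those above the lowest value in both libraries were kept, and 0.1 to 0.174 with 1 library left out. The same filter gave medians of 3.28 for propeptide cleavage, 1.18 for cross-linking, 10.2 for degradation and uptake and 1.76 for receptors, because genes at 0.1 left the lists. Cross-linking had 0.116 to 0.123 with 1 library left out. FPKM multiplied by coding length, nearer to a share of fragments, gave 33.4% of the collagen sum for fibril-forming collagens, 40.8% for collagen IV, 2.13% for multiplexins, 2.29% for collagen VI, 0.253% for short-chain and 0.393% for transmembrane collagens. Anchoring fibril and other collagens, mainly the short Col26a1, went to 6.74% from 19.3%. Without a filter on low values 1 collagen differed over 1.5-fold between the libraries, Col9a1, which is at 0.1 in replicate 2. The other 59 of 74 alternatives kept their values within the SD of the 2 libraries or within 1.5 times the count. For values with 1 library left out this was close to fixed in advance. Either of 2 libraries lies nearer to their mean than their SD, so the 59 do not measure how firm the results are. Values at 0.1 are read as a floor, so absence cannot be told from a low level there.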
